A study of Sus scrofa with 13 samples.

Results

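MFSD2A, MTUS1 and ITGB5 are 3 of the 35670 genes in the count table of 13 pig liver libraries. They were selected on their measured values, as genes whose normalized counts in all 8 livers infused with human cells lay below the values of all 3 ischemic controls. A normalized count is the read count divided by the size factor of its library, computed with DESeq2. Of the 16481 genes with enough reads to be tested, 56 genes (0.34%) had this order of the libraries, 49 of them with a gene symbol, and 37 genes (0.225%) had the opposite order, with all infused livers above all controls. The difference between infused livers and ischemic controls is therefore how the 3 genes were found, and it is given below as a description without a test.

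All libraries came from liver biopsies of pigs, which the study's methods describe as female Yorkshire animals of unstated age. Baseline (n = 2, replicates 1a and 2) was liver without ischemia or reperfusion, and ischemic controls (n = 3) had 45 min of complete vascular exclusion and 6 h of reperfusion without cells. Arterial infusion (n = 4) and portal infusion (n = 4) added 3000000 human BM-MSCs (mesenchymal stromal cells expanded from bone marrow) per kg body weight, given into the hepatic artery or the portal vein shortly after the clamps were removed. By the study's description the libraries at 6 h came from 1 pig each, while neither it nor the labels state whether a baseline library shares its animal with a library at 6 h.

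MFSD2A encodes a membrane transporter of the major facilitator superfamily that carries lysophosphatidylcholine with long polyunsaturated fatty acids, such as docosahexaenoic acid, into cells. It is best known from the endothelium of the blood-brain barrier, and in liver it is known as a gene induced by fasting. MTUS1 encodes microtubule-associated scaffold proteins, some of which bind the angiotensin II type 2 receptor, and it is known as a candidate tumor suppressor. ITGB5 encodes the integrin β5 subunit, which pairs with the αV subunit to form a receptor for vitronectin, an adhesive plasma protein made by hepatocytes.

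The 3 genes lie on different chromosomes of the pig assembly Sscrofa11.1. MFSD2A (ENSSSCG00000003669) lies on chromosome 6 from 95738961 to 95753245, between MYCL and CAP1. MTUS1 (ENSSSCG00000040013) lies on chromosome 17 from 5331668 to 5507212, between PDGFRL and FGL1, and ITGB5 (ENSSSCG00000037905) on chromosome 13 from 135468111 to 135587483, between MUC13 and UMPS. These positions are those of the RefSeq annotation, matched by symbol, in which 0 other genes overlap any of the 3. Reads were assigned to whole genes, so that isoforms of MTUS1 were not separated.

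Each library held between 18975413 and 35949178 reads on genes (median 30260803), and 13189 to 14924 genes had at least 10 reads. All 11 matched hepatocyte markers of 12, ALB among them, carried reads, with a summed normalized count of 1098960 or more in every library. Along principal component 1 of the 11 libraries at 6 h (500 most variable genes, 60.6% of their variance), portal infusion 1, arterial infusion 1, portal infusion 4 and ischemic control 2 lay between 17.0 and 102, apart from the other 7 libraries, which lay between -36.95 and -20.8. Results are therefore also given without these 4 libraries. The lowest raw count of a member in any library was 330 for ITGB5, 527 for MTUS1 and 1256 for MFSD2A, at which counting error alone is 5.50%, 4.36% and 2.82% of the value. The spread between livers was wider than that in each infused group.

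MFSD2A had its highest level in ischemic controls, a middle level in infused livers and its lowest level at baseline. The normalized count was 1209 and 1325 in the baseline libraries 1a and 2, and 4914, 10953 and 5105 in ischemic controls 1 to 3. In arterial infusions 1 to 4 it was 3695, 4016, 1849 and 3137, and in portal infusions 1 to 4 it was 1996, 2879, 2017 and 3176. Baseline, infused livers and controls thus formed 3 ranges that did not overlap, with ischemic control 2 far above the other controls. The group means were 1267 ± 82.2 (SD, n = 2) at baseline, 6991 ± 3433 (SD, n = 3) in controls and 2846 ± 818 (SD, n = 8) in infused livers. Mean MFSD2A was 5.52-fold higher in controls than at baseline, and 2.46-fold higher in controls than in infused livers. All 8 infused livers lay above both baseline libraries, with a mean 2.25-fold that of baseline. The share of all genes with this order was not counted, and baseline had only 2 libraries, so how common it is stays unknown. With ischemic control 2 left out, controls averaged 5009, or 1.76-fold the infused livers and 3.95-fold baseline.

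**Figure D1:**
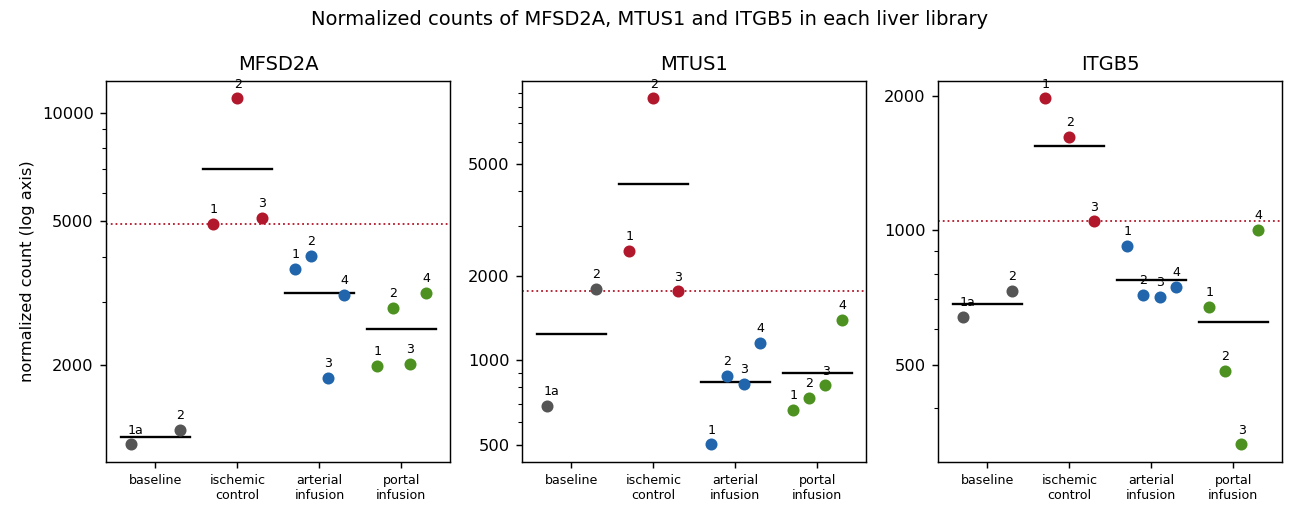
Normalized count (log axis) of MFSD2A, MTUS1 and ITGB5 in each library, by group, with the replicate number above each point, the group mean as a black line and the lowest ischemic control as a dotted line. All 8 infused livers lie under the dotted line in each panel, which is how the genes were selected, and only for MFSD2A do they also lie above both baseline libraries.

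MTUS1 had a high level in ischemic controls, led by 1 library, while infused livers lay within or below the range of the baseline libraries. Its normalized count was 687 and 1799 at baseline and 2444.5, 8586 and 1758 in ischemic controls 1 to 3. Arterial infusions 1 to 4 had 501, 877, 823 and 1151, and portal infusions 1 to 4 had 663, 734, 813 and 1391. Baseline 2 lay above ischemic control 3, so that controls and baseline overlapped, and 6 of the 8 infused livers lay between the baseline libraries and 2 below both. The mean was 1243 ± 786 (SD, n = 2) at baseline, 4263 ± 3759 (SD, n = 3) in controls and 869 ± 281 (SD, n = 8) in infused livers. Controls were thus 4.90-fold above infused livers and 3.43-fold above baseline in their means. Ischemic control 2 set the size of both, since the remaining controls averaged 2101, or 2.42-fold the infused livers and 1.69-fold baseline. The side of baseline on which infused livers lay also depended on 1 library, since their mean was 0.483-fold that of baseline without baseline 1a and 1.27-fold without baseline 2.

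ITGB5 was at nearly the same mean level at baseline and after infusion, and higher in ischemic controls. The baseline libraries had normalized counts of 639 and 731, and ischemic controls 1 to 3 had 1977, 1623 and 1047. Arterial infusions 1 to 4 were at 923, 716, 709 and 748, and portal infusions 1 to 4 at 672, 485, 331 and 1002. Controls lay above both other sets of libraries, although portal infusion 4 came close to ischemic control 3, while infused livers spread around baseline, with 3 above, 3 within and 2 below its 2 libraries. Means were 685 ± 64.8 (SD, n = 2), 1549 ± 469 (SD, n = 3) and 698 ± 216 (SD, n = 8) at baseline, in controls and in infused livers. The mean of the controls was 2.26-fold that of baseline and 2.22-fold that of infused livers, and the mean of infused livers was 1.02-fold that of baseline. Here the highest control was replicate 1, without which controls were 1.91-fold above infused livers.

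The 3 genes differed in where the infused livers lay beside baseline. For MFSD2A the order of the group means was ischemic control, arterial infusion, portal infusion and baseline, in which the 2 infusion groups overlapped and the other neighbours did not. For MTUS1 it was ischemic control, baseline, portal infusion and arterial infusion, and each neighbouring pair overlapped. For ITGB5 the order was ischemic control, arterial infusion, baseline and portal infusion, and all but the controls overlapped. Controls above both baseline libraries were found for 2 of the 3 genes, MFSD2A and ITGB5. Among all genes tested, 14.8% had the 3 controls above both baseline libraries, and 0.218% had the controls above both baseline and infused livers, which are 36 of the 56 genes with infused livers below controls (64.3%). Since the rule favours genes with high controls, these shares say nothing further about the 2 genes.

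On the log2 scale, fold changes were taken from edgeR's quasi-likelihood model with all 13 libraries in 1 fit. Infused livers minus controls gave -1.31 (SE 0.32) for MFSD2A, -2.28 (SE 0.43) for MTUS1 and -1.20 (SE 0.31) for ITGB5. Arterial infusion minus controls gave -1.14 (SE 0.38), -2.32 (SE 0.53) and -1.02 (SE 0.37) in the same order, and portal infusion minus controls -1.49 (SE 0.38), -2.25 (SE 0.53) and -1.37 (SE 0.37). Both routes share the same 3 controls, so these values are not independent of each other. Controls minus baseline gave 2.44 (SE 0.50), 1.75 (SE 0.67) and 1.18 (SE 0.46). Infused livers minus baseline gave 1.13 (SE 0.43) for MFSD2A, -0.53 (SE 0.52) for MTUS1 and -0.02 (SE 0.39) for ITGB5. Without the 4 libraries that stood apart, infused livers minus controls gave -0.89, -1.30 and -1.48, from 5 infused livers and 2 controls.

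**Figure D2:**
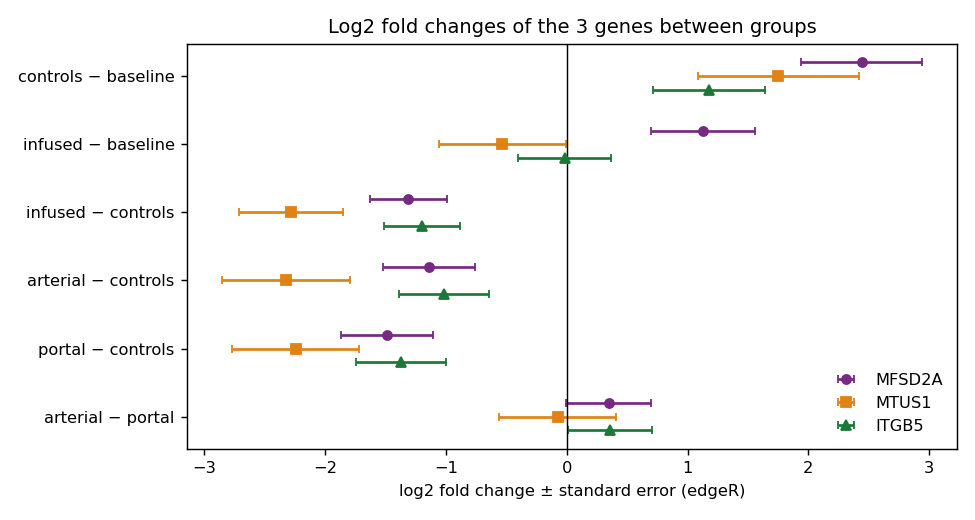
Log2 fold changes (x axis) of the 3 genes in 6 comparisons of groups (y axis), with bars of 1 standard error from the edgeR fit. All points for infused livers against controls lie between -2.32 and -1.02, while against baseline they run from -0.53 for MTUS1 to 1.13 for MFSD2A.

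The route of infusion was the contrast that the selection did not use, and a difference between arterial and portal infusion was not detected for any of the 3 genes. By qPCR, the study found less human B2M, its marker of the infused cells, in the left lobe after portal than after arterial infusion. For the right lobe it reported no significant difference between routes. Neither the lobe nor the human cell content of each library entered the comparisons here. Mean MFSD2A was 3174 ± 955 (SD, n = 4) after arterial and 2517 ± 602 (SD, n = 4) after portal infusion. The log2 difference of 0.35 had a 95% interval from -0.41 to 1.10, or from 0.754-fold to 2.15-fold. MTUS1 was at 838 ± 267 and 900.3 ± 333, a log2 difference of -0.08 with an interval from -1.11 to 0.96, or 0.463-fold to 1.95-fold. ITGB5 was at 774 ± 101 and 623 ± 289, a log2 difference of 0.36 with an interval from -0.38 to 1.10, or 0.767-fold to 2.14-fold. The adjusted p of edgeR's quasi-likelihood test, over the 16481 genes, was 1.00 for each gene, and 0 genes (0%) passed 0.05 in this comparison, with 396 (2.4%) at an unadjusted p under 0.05 and 1 called by DESeq2. The exact two-sided permutation test on log2(normalized count + 1) gave p = 0.343 for MFSD2A, p = 0.829 for MTUS1 and p = 0.286 for ITGB5, where 4 livers against 4 cannot give less than 0.0286. Without the 4 libraries that stood apart, the log2 difference was 0.27 for MFSD2A, 0.28 for MTUS1 and 0.81 for ITGB5, the last more than its value over all livers. The intervals are wide enough to hold a difference of 1.95-fold or more between routes for each gene.

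Within the infused livers the 3 genes did not put the libraries in the same order. Portal infusion 4 was the highest infused liver for MTUS1 and ITGB5 and the third highest for MFSD2A. Arterial infusion 1 was the lowest infused liver for MTUS1 and the second highest for MFSD2A and ITGB5. Portal infusion 3 was the lowest for ITGB5 and arterial infusion 3 the lowest for MFSD2A. The coefficient of variation over the 8 infused livers was 28.8% for MFSD2A, 32.4% for MTUS1 and 31.0% for ITGB5, beside a median of 45.6% over 11553 genes with a mean normalized count of at least 50. A low highest value among infused livers was part of the selection, so that the small spread is a description.

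The gap between the lowest control and the highest infused liver was narrow. It was 4914 in ischemic control 1 against 4016 in arterial infusion 2 for MFSD2A, a ratio of 1.22. For MTUS1 it was 1758 in ischemic control 3 against 1391 in portal infusion 4 (ratio 1.26), and for ITGB5 1047 in ischemic control 3 against 1002 in portal infusion 4 (ratio 1.04). By this ratio they stood 15th, 12th and 39th among the 56 genes, and by mean level 5th, 8th and 13th. Of the genes with a symbol and a mean of at least 50, the one nearest to the limit on its inner side was MFAP4, at 485 against 484, and on its outer side MAN2B1, at 1955 against 1958. Scaled to the library total, by TMM or by the upper quartile, the infused livers also lay below the controls for each of the 3 genes, with ratios between 1.04 and 1.39.

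**Figure D3:**
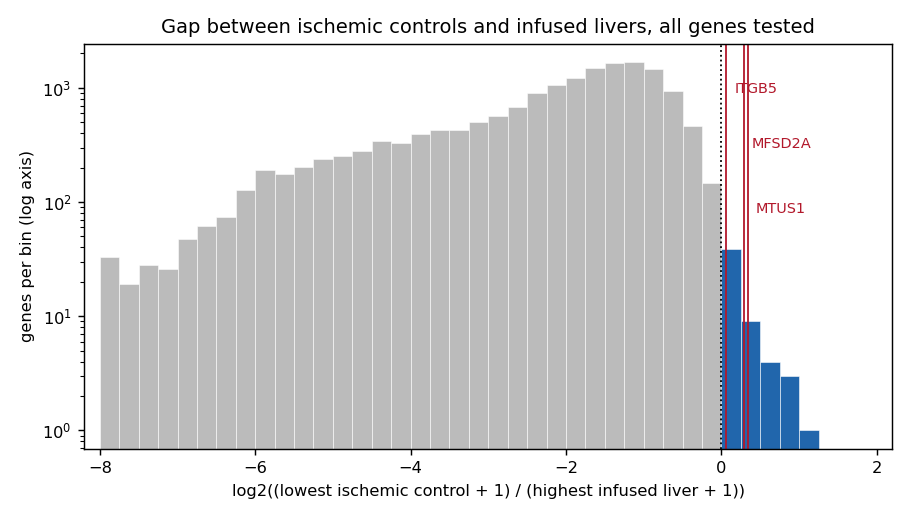
Histogram of the log2 ratio of the lowest ischemic control to the highest infused liver (x axis, 1 added to both) over the 16481 genes tested (y axis, genes per bin on a log axis), with values under -8 drawn in the first bar. The 56 genes in blue lie above 0, and red lines mark ITGB5 at 0.06, MFSD2A at 0.29 and MTUS1 at 0.34.

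The summed level of the macrophage markers was lower in infused livers than in ischemic controls, although no single marker passed the adjusted threshold. In a bulk sample, fewer cells of a type and less RNA per cell cannot be told apart. The summed normalized count of 8 matched macrophage markers of 9 was between 35798 and 63281 in ischemic controls, between 23368 and 31799.7 in infused livers and 21068 and 34864 at baseline, so that all 8 infused livers lay below all 3 controls. C1QA, C1QB and C1QC had the highest levels of the list in both groups and weigh most in the sum. The complement genes C1QA and C1QC, which macrophages of the liver express, had infused livers below controls one by one, an order found in 0.34% of all genes, and the other 6 markers overlapped. C1QA was at 12660 ± 5967 (SD, n = 3) in controls and 5607 ± 596 (SD, n = 8) in infused livers, a log2 difference of -1.18 (SE 0.30), and C1QC at 12350.4 ± 3935 and 6269 ± 895, a log2 difference of -0.98 (SE 0.30). Neither passed 0.05 in edgeR's test after adjustment over all genes (adjusted p = 1.00 each). With C1QB and CSF1R, 4 of the 8 markers were lower in infused livers at an unadjusted p under 0.05, beside 1.41% of all genes tested. MARCO, a scavenger receptor of macrophages, had the opposite sign, at 289 ± 141 in controls and 847 ± 1197 in infused livers, a log2 difference of 1.46 (SE 0.92). No marker of the list was at 0 in all libraries, and its part in the result of the 3 genes was not tested.

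**Figure D4:**
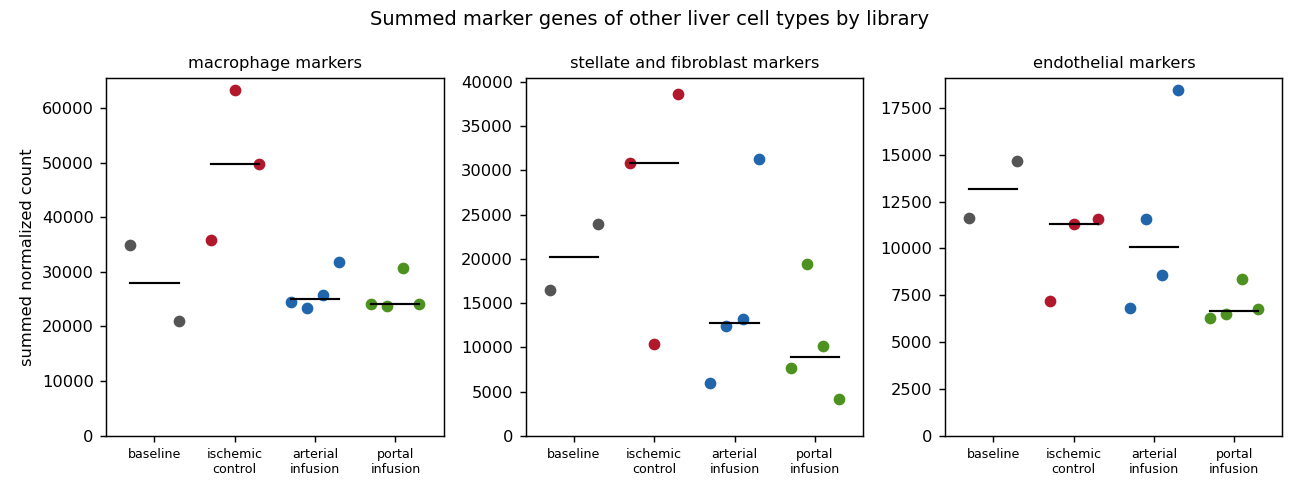
Summed normalized counts of macrophage, stellate and fibroblast, and endothelial marker genes (y axes) in each library by group, with the group median as a black line. Macrophage markers are at 35798 or more in each ischemic control and at 31799.7 or less in each infused liver, while the other 2 lists overlap between these groups.

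The other marker lists overlapped between controls and infused livers, and the single markers named from them were chosen after their values were seen. The sum of 10 stellate and fibroblast markers was 10344 to 38674 in controls and 4175 to 31254 in infused livers, and 2 of them, COL1A1 and COL1A2, were lower in infused livers at an unadjusted p under 0.05 (1.41% of all genes). In the same list LRAT, ACTA2 and LUM had the opposite sign, with log2 differences of 1.08 (SE 0.55), 1.09 (SE 0.87) and 0.98 (SE 1.44). The sum of 9 endothelial markers of 10 was 7168 to 11590 and 6290 to 18462 in the same order. In this list 1 marker, VWF, was lower in infused livers at an unadjusted p under 0.05 (1.41% of all genes). Endothelial markers had a median log2 difference between arterial and portal infusion of 0.88, and 9 of 9 were higher after arterial infusion, 3 of them, KDR, TEK and EMCN, at an unadjusted p under 0.05 and 0 after adjustment. Over all genes the median was 0.04, 52.9% were higher after arterial infusion and 1.09% were so at an unadjusted p under 0.05. The endothelial sums of the routes overlapped, at 6834, 11585, 8560 and 18462 in arterial infusions 1 to 4 and 6290 to 8373 after portal infusion. Arterial infusion 4 was thus far above the rest, and markers of 1 cell type are not independent of each other. The 5 matched neutrophil markers of 8 summed to 1416 to 11970.5 in controls and 677 to 8823 in infused livers. Lymphocyte markers summed to 768 to 3341 and 1020 to 3474 in the same order. Cholangiocyte markers summed to 965 to 1788 in controls and 615 to 1903 in infused livers, and hepatocyte markers to 1705160 to 2582420 and 1098960 to 3728690. The 13 protein genes of the mitochondrial genome took 4.84% to 7.94% of the reads in controls and 5.58% to 22.0% in infused livers, of which 5 lay above all controls. Whether these shares bear on the 3 genes was not tested.

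The genes that work with the 3 members are given from lists of known partners and pathway members. In infused livers against controls, 0 genes of all those tested passed the adjusted threshold (0%), as did 0 in controls against baseline (0%) and 0 in infused livers against baseline (0%). At an unadjusted p under 0.05 there were 353 (2.14%), 720 (4.37%) and 683 (4.14%) genes, and DESeq2 over the 13 libraries called 1, 5 and 17, none of them in these 3 lists. The lists are therefore described by signs, by overlap and by unadjusted p.

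Among 28 tested genes of integrins, their ligands and TGF-β activation, 18 had lower values in infused livers than in controls, with a median log2 difference of -0.12, beside 52.1% of all genes lower and a median of -0.02. None of them had infused livers all below or all above the controls, orders found in 0.34% and 0.225% of all genes. ITGAV, the αV partner of ITGB5, was at 922 ± 559 (SD, n = 3) in controls and 870 ± 384 (SD, n = 8) in infused livers, a log2 difference of -0.13 (SE 0.47). VTN, the gene of vitronectin, was at 164730 ± 145414 and 125661 ± 33070, a log2 difference of -0.38 (SE 0.45). ITGB1, the β1 subunit that pairs with many α subunits, differed by -0.03 (SE 0.53), and SPP1, the gene of the integrin ligand osteopontin, by 0.09 (SE 0.84). Each of these differences was smaller than its standard error. ITGA3, CCN2 and MFGE8, named after their values were seen, were lower in infused livers at an unadjusted p under 0.05. They are 3 of the 28 genes, beside 1.41% of all genes tested. Their log2 differences were -1.97, -1.18 and -0.78, with an adjusted p of 1.00 each in edgeR's test.

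For MTUS1, 20 of 26 listed genes of the angiotensin system and of proteins at microtubule ends were tested. The gene of the type 2 receptor was not among those tested. Of the 20 genes, 14 were lower in infused livers than in controls, with a median log2 difference of -0.10. Over all genes, 52.1% were lower and the median was -0.02. In the list 0 had an unadjusted p under 0.05, beside 2.14% of all genes in either direction. AGT, the angiotensin precursor made in the liver, was at 25823 ± 8027 in controls and 24757 ± 8461 in infused livers (log2 difference -0.08, SE 0.41). AGTR1, the type 1 receptor, was at 4260 ± 2901 and 3303 ± 1327 (-0.41, SE 0.46). MAPRE1, which encodes a protein of growing microtubule ends, was at 643 ± 163 and 878 ± 291 (0.43, SE 0.38). All 3 genes overlapped between controls and infused livers.

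For MFSD2A, 29 genes of lysophospholipid and polyunsaturated fatty acid handling were tested. Of these 15 were lower in infused livers than in controls, with a median log2 difference of -0.04, beside 52.1% of all genes lower and a median of -0.02. The list held 0 genes at an unadjusted p under 0.05, beside 2.14% of all genes in either direction. FADS1 and FADS2, the desaturases that make long polyunsaturated fatty acids, differed by -0.41 (SE 0.47) and -0.51 (SE 0.38) on the log2 scale. ELOVL5, an elongase of the same pathway, differed by 0.28 (SE 0.56), and LPCAT3, which builds polyunsaturated fatty acids into phosphatidylcholine, by 0.14 (SE 0.72). In controls against baseline, LPCAT4 was higher (1.43, SE 0.61) and ACSL1 lower (-1.75, SE 0.81) at an unadjusted p under 0.05 in edgeR's test. In this comparison 4.37% of all genes were under 0.05 in either direction. Both genes were named after their values were seen, and neither passed the adjusted threshold (adjusted p = 0.978 each). The list held 0 genes with infused livers all below or all above the controls, orders found in 0.34% and 0.225% of all genes.

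The genes with the most similar pattern were ranked by Pearson's r of log2(normalized count + 1) over the 13 libraries, among 10176 other genes with a symbol and a mean of at least 50. As they were picked as the highest of so many, r is a description. For MFSD2A they were KBTBD6 (r = 0.852), GRAMD1A (0.831), IGSF8 (0.829), HYAL2 (0.807) and ING1 (0.807). GRAMD1A, which encodes a sterol transfer protein of the endoplasmic reticulum, was at 205 ± 35.7 (SD, n = 2) at baseline, 481 ± 16.8 (SD, n = 3) in controls and 317 ± 100.3 (SD, n = 8) in infused livers, and its r was 0.860 without ischemic control 2 and baseline 1a, the libraries farthest from the median of MFSD2A. Without those libraries r was lower for the other 4 genes, at 0.677 for KBTBD6, 0.672 for IGSF8, 0.622 for HYAL2 and 0.705 for ING1.

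For MTUS1 the most similar genes were ERO1B (r = 0.853), TMEM248 (0.822), JUNB (0.817), NCF4 (0.802) and NTN1 (0.788). Without ischemic controls 1 and 2, the libraries farthest from its median, r was lower for all 5, at 0.528 for ERO1B, 0.777 for TMEM248, 0.193 for JUNB, 0.335 for NCF4 and 0.542 for NTN1. The likeness rests on those 2 libraries most for JUNB, an immediate early transcription factor, and NCF4, a subunit of the phagocyte oxidase. For ITGB5 they were SMO (r = 0.819), CPXM2 (0.814), SIK1 (0.798), ATP9A (0.791) and TBC1D24 (0.787), with values from 0.623 to 0.863 without ischemic controls 1 and 2. SMO, the signal transducer of the Hedgehog pathway, was the only one of these 15 genes with all infused livers below all controls. This order was found in 0.34% of all genes, and choosing genes for likeness to a selected member favours it. SMO was at 66.2 ± 18.3 at baseline, 143 ± 14.7 in controls and 68.2 ± 19.1 in infused livers. Between the members r was 0.662 for MFSD2A and MTUS1, 0.677 for MFSD2A and ITGB5 and 0.693 for MTUS1 and ITGB5, to which their shared selection contributes.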

How the data were processed

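RNA was measured in 13 pig liver libraries. Per the study's methods, the authors discarded reads of low quality, aligned with HISAT2 against assembly Sscrofa11.1, and used FeatureCounts on Ensembl genes. The table they deposited holds raw counts. Tool versions are not given in the sources used here. The libraries were not directional, and any reads of the infused human cells that map to pig genes are not separated. Groups follow the sample labels, and 0 columns were left unused. No replicate was a copy of another (smallest chi-square per gene 83.6). R 4.3.3 with edgeR 4.0.16 was used (filterByExpr, TMM, quasi-likelihood test, all 13 libraries and 4 groups in 1 fit, Benjamini-Hochberg adjustment over 16481 genes, threshold 0.05). The standard error is the log2 fold change divided by the square root of F. DESeq2 1.42.0 gave the size factors and an alternative test. The edgeR test was tried on simulated counts first, for arterial against portal infusion, and the other tests were not. Context genes were fixed by name (1 is not reported here), with any gene past the threshold or without overlap, and similar genes as the 5 highest r per member. Members, lists and these rules were chosen with earlier results of these data known. Intervals and counting errors cover what the counts show, with no molecular identifiers. Sequences are not used here. Alternatives were DESeq2, only the groups compared, RLE and upper quartile scaling, other filters on low counts, a replicate block and each library left out. Leaving out 4 libraries together was added after the data were seen.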

Additional observations from a re-analysis of the deposited data

How the results depend on the processing

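Of 252 recomputed log2 fold changes of the 3 genes, 238 kept their direction and their size or their side of the threshold, 12 turned and 2 moved by more than the spread between replicates. The sign of infused livers minus controls was fixed by how the genes were selected. Its size moved for MTUS1, which ranged from -2.70 to -1.33 with each library left out (-1.33 without ischemic control 2) and was -1.30 without the 4 libraries that stood apart. ITGB5 in infused livers minus baseline was -0.32 without the 4 libraries, and it was 0.0185 with DESeq2 and with RLE scaling, 0.0406 with upper quartile scaling, 0.0199 with at least 10 counts in every library and between -0.173 and 0.0788 with each library left out. MTUS1 in infused livers minus baseline ranged from -1.07 without baseline 1a to 0.26 without baseline 2. MTUS1 in controls minus baseline ranged from 0.80 without ischemic control 2 to 2.55 without baseline 2. MTUS1 in arterial minus portal infusion ranged from -0.26 to 0.19 with each library left out and was 0.28 without the 4 libraries. The counts of genes past the threshold, 0 in each comparison, were 1, 5, 17 and 1 with DESeq2 and 19, 30, 25 and 5 with no filter on low counts, in the order infused against controls, controls against baseline, infused against baseline and arterial against portal, and 1 in infused against controls without the 4 libraries. The 56 genes with infused livers below controls were 31 with at least 10 counts in every library, where fewer genes are compared, and 1040 without the 4 libraries, where 5 livers stand against 2. The cause of the other changes was not tested. Whether the replicate numbers pair the libraries could not be settled. Deviations of same-numbered libraries from their group means correlated between -0.38 and 0.40 in 16 pairs, 5 of them over 0.1. Same-numbered arterial and portal infusions correlated at 0.39, 0.26, 0.40 and -0.11 for numbers 1 to 4. Of the 8 infused livers, 4 correlated best with their own number. With a replicate block, arterial minus portal infusion was 0.33 for MFSD2A, -0.09 for MTUS1 and 0.46 for ITGB5, and 0 genes passed in each comparison. With 2 baseline libraries and 3 controls, 1 library decides the size of several values.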
